A study of Mus musculus with 4 samples.

Results

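Cyclins D and E, their kinases and the RB-E2F switch are described here in RNA-seq libraries of sorted mouse lung cells. The 10 genes were taken by symbol from the deposited per-gene tables. They are the cyclins Ccnd1, Ccnd2, Ccnd3, Ccne1 and Ccne2, the kinases Cdk2, Cdk4 and Cdk6, the RB protein gene Rb1 and the transcription factor gene E2f1. All 10 were found, out of 23990 genes in all, each with 1 entry per table. All 10 also passed the filter on low values, a mean of at least 1 FPKM (fragments scaled to transcript length and to sequencing depth) over the 4 libraries, which 12040 genes passed.

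The libraries came from alveolar type 1 (AT1) cells, the thin cells across which the lung exchanges gas, sorted from the lobe edges of mice of a mixed B6 and 129 strain at postnatal day 3 to 4. Every animal carried Scnn1a-Cre, a recombinase expressed from the Scnn1a gene. The Sox2-labelled libraries (n = 2) carried the genotype label Rosa[Sox2/+], and the control-labelled ones (n = 2) Rosa[mTmG/+]. Animals of both genotypes were littermates, and cells stained by a dead-cell dye were excluded in the sort. Nothing in the labels ties the libraries of a group to separate animals. The p-values therefore speak of the spread among 4 libraries, which may be technical.

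Sox2, a transcription factor of the conducting airway, went against the labels. It stood at 1.41 and 1.99 FPKM in the Sox2-labelled libraries and at 302 and 477 FPKM in the control-labelled libraries. Directions below use the deposited labels and so run against the measured Sox2 level. In control-labelled replicate 2, small RNA genes held 50.9% of the summed FPKM, against 5.76% to 19.3% in the other libraries. The deposited bounds around a value had a median half-width of 7.82% to 12.4% of the value for genes of at least 1 FPKM, widest in Sox2-labelled replicate 2. The tables hold no read counts, so depth is unknown, and 11062 to 12096 genes a library reached 1 FPKM.

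The cell division cycle is entered through a relay that these genes encode. D cyclins, whose transcription answers growth signals, bind Cdk4 and Cdk6 and begin the phosphorylation of the RB protein, which otherwise holds E2F factors inactive. Released E2F factors switch on genes of DNA synthesis as well as the E cyclins, which bind Cdk2 and complete the phosphorylation. AT1 cells are regarded as cells that seldom divide.

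Ccnd1, Ccnd2 and Cdk4 were lower in the Sox2-labelled libraries, and the other 7 genes did not pass. The test was limma on log2(FPKM + 1), with Benjamini-Hochberg adjustment over all 12040 genes and a threshold of 0.05. In the same fit 8.11% of all tested genes were lower and 4.20% higher. None of the 10 genes was higher by this test or at an unadjusted p under 0.05 in limma, while 7 were lower at that unadjusted level. Of all 12040 tested genes, 1020 were higher and 2538 lower at the same unadjusted level. The groups did not overlap in 8 of the 10 genes with lower values in the Sox2-labelled libraries, where 42.5% of all tested genes did so, and in Ccnd3 with higher values, where 15.7% did. Non-overlapping groups of either direction thus made up 9 of the 10 genes and 58.1% of all tested genes. The median log2 difference, coded as labelled Sox2 minus labelled control, was -1.13 over the 10 genes and -0.29 over all tested genes. For a single gene an exact permutation test over these 4 libraries cannot go below p = 0.333, so none is reported. With no filter on low values none of the 10 passed (limma's adjusted p = 0.0788 for Ccnd1, 0.0903 for Ccnd2 and 0.112 for Cdk4). In that fit 6 were lower at an unadjusted p under 0.05, as were 2618 of all 18390 genes tested. In bulk libraries, fewer cells of a type and less RNA per cell cannot be told apart.

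**Figure D1:**
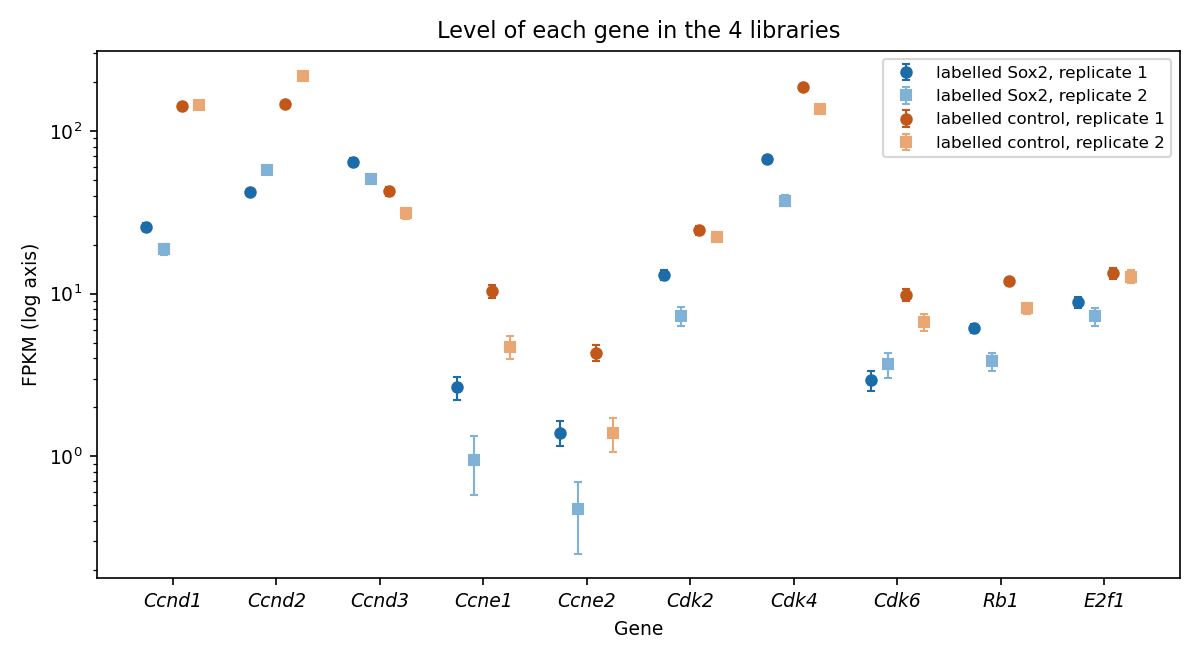
FPKM of each of the 10 genes (log axis) in the 2 Sox2-labelled libraries (blue) and the 2 control-labelled ones (orange), with circles for replicate 1 and squares for replicate 2 and bars for the lower and upper bounds deposited with each value. Ccnd1, Ccnd2 and Cdk4 stand well apart between the labels, and Ccnd3 is the gene with both blue points above both orange ones. Ccne2 is the gene whose groups meet (1.40 FPKM in Sox2-labelled replicate 1 and 1.39 FPKM in control-labelled replicate 2).

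The D cyclins did not share one direction. Ccnd1 (chromosome 7, 144929931 to 144939925 in mm10, minus strand, 5 exons in its longest GENCODE M21 transcript) encodes cyclin D1, a cyclin that many growth signals raise. Its level was 25.7 and 18.7 FPKM in the Sox2-labelled libraries and 143 and 144 FPKM in the control-labelled ones. The control-labelled libraries differed by less than their deposited bounds, 137 to 149 and 137 to 150 FPKM, and both lay far above the others. Group means of 22.2 ± 5.00 FPKM (SD, n = 2) and 143 ± 0.563 FPKM (SD, n = 2) differed by 6.45-fold, with a log2 difference of -2.65 (SE 0.31, limma's adjusted p = 7.96e-04). Its call held under all 3 rescalings and with any 1 library left out, and the fold then ranged from 5.57 to 7.67.

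Ccnd2 (chromosome 6, 127125709 to 127151048, minus strand, 5 exons) encodes cyclin D2. It measured 41.9 and 57.5 FPKM in the Sox2-labelled libraries against 146 and 218 FPKM. Both control-labelled libraries exceeded both of the others, and within each label replicate 2 had more than replicate 1. The difference was 3.67-fold, with a log2 difference of -1.84 (SE 0.33, limma's adjusted p = 0.00659). It held with any 1 library left out but not under median-of-ratios rescaling (-1.49, limma's adjusted p = 0.0686). The entry of 9330179D12Rik, a transcript of the opposite strand, overlaps the gene's start and did not exceed 0.586 FPKM in any library.

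Ccnd3 (chromosome 17, 47505051 to 47599688, plus strand, 7 exons) encodes cyclin D3 and had the opposite sign. Its values were 64.7 and 50.6 FPKM in the Sox2-labelled libraries and 42.5 and 31.2 FPKM in the control-labelled ones, so the groups did not overlap. The ratio of the means was 1.57, and the log2 difference of 0.64 (SE 0.32) did not pass (limma's adjusted p = 0.214). Under each of the 3 rescalings between libraries it did pass, at 0.99 with median-of-ratios (limma's adjusted p = 0.0363), 0.96 with quantile normalization (0.0347) and 0.93 with an equal sum over genes other than small RNA genes (0.0439). Its end overlaps Bysl on the opposite strand, which stood between 5.61 and 11.6 FPKM.

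Shares within a library do not change when a library is multiplied by a factor, and FPKM values are per length, so the D cyclins can be set against each other. Ccnd3 made up 48.9% and 39.9% of the summed D cyclin FPKM in the Sox2-labelled libraries and 12.8% and 7.93% in the control-labelled ones. Ccnd1 made up 19.4% and 14.7% against 43.1% and 36.5%. Neither share overlapped between the labels, whereas that of Ccnd2 did, at 31.7% and 45.4% against 44.1% and 55.5%. The ratio of Ccnd1 to Ccnd3 was 0.398 and 0.369 in the Sox2-labelled libraries and 3.36 and 4.61 in the control-labelled ones. Thus cyclin D3 led the D cyclin transcripts in Sox2-labelled replicate 1 and cyclin D2 in the other 3 libraries. In control-labelled replicate 1 Ccnd1 and Ccnd2 lay within each other's bounds (137 to 149 and 144 to 148 FPKM). The summed D cyclins were 132 and 127 FPKM against 331 and 393 FPKM.

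**Figure D2:**
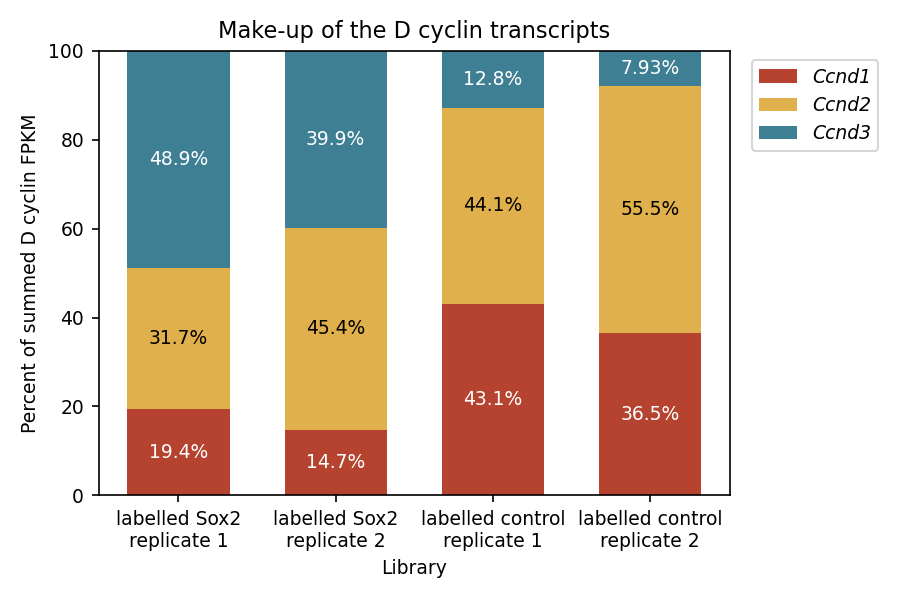
Percent of the summed D cyclin FPKM held by Ccnd1, Ccnd2 and Ccnd3 in each of the 4 libraries, with the value printed in each segment. The Ccnd3 segment takes 39.9% and 48.9% in the Sox2-labelled libraries and 7.93% and 12.8% in the control-labelled ones.

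Among the kinases Cdk4, the main partner of the D cyclins, passed the test. The gene lies on chromosome 10 from 127063603 to 127067282, on the plus strand, with 8 exons. It stood at 67.6 and 37.2 FPKM in the Sox2-labelled libraries and at 187 and 137 FPKM in the control-labelled ones. No library of one label reached the range of the other. The means of 52.4 ± 21.5 (SD, n = 2) and 162 ± 35.5 (SD, n = 2) differed 3.09-fold, with a log2 difference of -1.65 (SE 0.36, limma's adjusted p = 0.0146). The call held under all 3 rescalings, but not without Sox2-labelled replicate 2 (-1.23, limma's adjusted p = 0.162).

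The stretch before the Cdk4 start is shown because it holds 4 copies of the E-box CACGTG, the letters bound by MYC with its partner MAX. The levels of Myc are given with the regulators of the D cyclins. It spans chr10:127063285-127063533, plus strand, and the E-boxes, in capitals, begin 172, 118, 98 and 11 bases before the RefSeq start. The RefSeq promoter table (GRCm38.p6, the assembly of mm10) has entries for 6 of the 10 genes.
Cdk4: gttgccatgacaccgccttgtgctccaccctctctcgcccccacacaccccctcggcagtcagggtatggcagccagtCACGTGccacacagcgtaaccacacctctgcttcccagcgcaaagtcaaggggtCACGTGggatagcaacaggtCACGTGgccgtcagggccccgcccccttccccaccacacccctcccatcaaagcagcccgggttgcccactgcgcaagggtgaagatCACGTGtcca
Of 32851 promoter entries, 1978 (6.02%) had at least 1 such match in the 250 bases before the start, 20 had at least 3 and 7 at least 4. The motif reads the same on both strands and was chosen after the sequence was seen. A match describes these letters and does not show a bound site.

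Cdk6, the other kinase of the D cyclins (chromosome 5, 3344312 to 3522225, plus strand, 8 exons), was low in all libraries. Its values were 2.93 and 3.68 FPKM in the Sox2-labelled libraries and 9.82 and 6.69 FPKM in the control-labelled ones. The groups did not overlap, and the log2 difference of -1.09 (SE 0.39) did not pass (limma's adjusted p = 0.0912). Cdk4 exceeded Cdk6 by 23.1 and 10.1 times in the Sox2-labelled libraries and by 19.0 and 20.4 times in the control-labelled ones, so this ratio overlapped between the labels. The summed D cyclins over summed Cdk4 and Cdk6 gave 1.88 and 3.10 against 1.68 and 2.74, which overlapped too.

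Cdk2, the partner of the E cyclins (chromosome 10, 128697939 to 128705051, minus strand, 8 exons), stood at 13.0 and 7.29 FPKM in the Sox2-labelled libraries. In the control-labelled ones it stood at 24.4 and 22.4 FPKM. The ranges did not meet, and the ratio of the means was 2.31. The log2 difference of -1.18 (SE 0.37) missed the threshold (limma's adjusted p = 0.0592). It also missed it under each rescaling (limma's adjusted p = 0.0607 to 0.0738), without trend (0.0756) and without the filter on low values (0.153). It passed under the robust variance model (limma's adjusted p = 0.0338) and with the replicate block (0.0181), whose replicate numbers are no stated pairing. With a library left out the log2 difference ranged from -0.80 (without Sox2-labelled replicate 2) to -1.56 (without Sox2-labelled replicate 1).

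The promoters of both kinases are shown around their single matches, the Cdk6 one to the E-box (chr5:3343661-3343690, plus strand) and the Cdk2 one to the E2F site TTTCCCGC, read here on its other strand (chr10:128705173-128705202, minus strand). Capitals mark the match.
Cdk6: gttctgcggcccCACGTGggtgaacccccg
Cdk2: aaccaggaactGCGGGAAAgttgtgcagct
The E2F sites searched on both strands were TTTCCCGC, TTTGGCGC and TTTCGCGC, and 504 of the 32851 entries (1.53%) held at least 1 of them in 250 bases before the start. Among the 6 genes with an entry, which are Ccnd3, Ccne1, Cdk2, Cdk4, Cdk6 and E2f1, Cdk2 was the only one with an E2F match in that window, and Cdk4 and Cdk6 the only ones with an E-box. The E2f1 window (154569427 to 154569676) lies wholly in exons inside the deposited gene, so the stretch before the deposited start was not searched. The windows of Cdk6 (3343643 to 3343892) and Cdk4 (127063285 to 127063534) end before the deposited starts (3344312 and 127063603). The bases next to those starts were not searched either.

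By group mean the E cyclins had the lowest levels of the 10 genes under both labels, and in each library the widest bounds relative to the value. Ccne1 (chromosome 7, 38097984 to 38107490, minus strand, 12 exons) encodes cyclin E1, itself a known target of E2F factors. It stood at 2.65 and 0.950 FPKM in the Sox2-labelled libraries and at 10.3 and 4.72 FPKM in the control-labelled ones. The groups did not overlap, although replicate 1 was well above replicate 2 within both labels. The log2 difference of -1.59 (SE 0.48) missed the threshold (limma's adjusted p = 0.0520). It passed under quantile normalization (limma's adjusted p = 0.0408) and under the robust variance model (0.0216). It did not under median-of-ratios (limma's adjusted p = 0.0593) or equal-sum rescaling (0.0797). With 1 library left out the log2 difference ranged from -1.10 (without control-labelled replicate 1) to -2.08 (without control-labelled replicate 2). The ratio of the means was 4.17, and it became 7.91 without Sox2-labelled replicate 1 and 2.62 without control-labelled replicate 1.

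Ccne2 (chromosome 4, 11191351 to 11204779, plus strand, 12 exons) encodes cyclin E2. It was listed at 1.40 and 0.473 FPKM in the Sox2-labelled libraries and at 4.33 and 1.39 FPKM in the control-labelled ones. The groups met at 1.40 and 1.39 FPKM, and the half-width of the bounds reached 47.0% of the value in Sox2-labelled replicate 2. The log2 difference of -0.93 (SE 0.48) did not pass (limma's adjusted p = 0.222), but did without control-labelled replicate 2 (-1.51, limma's adjusted p = 0.0148). Ints8, on the opposite strand, overlaps this gene with 4.76 to 9.96 FPKM, above Ccne2 in every library, and reads of the shared stretch cannot be told apart without strand. Ccne1 held 65.5% and 66.7% of the summed E cyclin FPKM in the Sox2-labelled libraries and 70.4% and 77.2% in the control-labelled ones.

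Rb1 and E2f1 differed less than Ccnd1, Ccnd2 and Cdk4. Rb1, the brake of the relay (chromosome 14, 73195502 to 73325791, minus strand, 27 exons), stood at 6.11 and 3.84 FPKM in the Sox2-labelled libraries and at 11.9 and 8.10 FPKM in the control-labelled ones. The groups did not overlap, and the log2 difference of -0.89 (SE 0.40) did not pass (limma's adjusted p = 0.164). Lpar6, a receptor gene inside the Rb1 span on the opposite strand, measured 3.14 and 1.84 FPKM against 19.5 and 15.5 FPKM, and its part in the Rb1 values was not tested.

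E2f1 (chromosome 2, 154559400 to 154569892, minus strand, 7 exons), the activator that RB restrains, had 8.82 and 7.24 FPKM against 13.3 and 12.7 FPKM. Its groups did not overlap, and its log2 difference of -0.64 (SE 0.35) did not pass under any setting tried (limma's adjusted p = 0.251 as deposited, 0.0633 to 0.748 over the alternatives). The ratio of E2f1 to Rb1 was 1.44 and 1.89 in the Sox2-labelled libraries and 1.12 and 1.57 in the control-labelled ones, which overlapped.

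By level, the 10 genes had the same high and low sets in every library, with Cdk2 ranked between them. Cdk4 and the 3 D cyclins were the 4 most abundant in each, from 18.7 to 218 FPKM, and Cdk2 was the fifth, from 7.29 to 24.4 FPKM. In Sox2-labelled replicate 2 Cdk2 (6.30 to 8.28 FPKM) and E2f1 (6.34 to 8.14 FPKM) lay within each other's bounds. E2f1, Rb1, Cdk6, Ccne1 and Ccne2 stayed between 0.473 and 13.3 FPKM. Ccne2 was the lowest in all 4. Some neighbours inside the low set lay within each other's bounds, as did Cdk6 (9.02 to 10.6 FPKM) and Ccne1 (9.38 to 11.2 FPKM) in control-labelled replicate 1. Most such neighbours did not.

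Because the median tested gene lay at -0.29, a rescaling between libraries moves all differences upward. Relative to that median, the log2 differences as deposited were -2.36 for Ccnd1, -1.55 for Ccnd2, -1.36 for Cdk4, -1.30 for Ccne1 and 0.93 for Ccnd3. That of E2f1 was -0.35, the smallest of the 10 in size. No gene changed sign under any of the 3 rescalings.

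**Figure D3:**
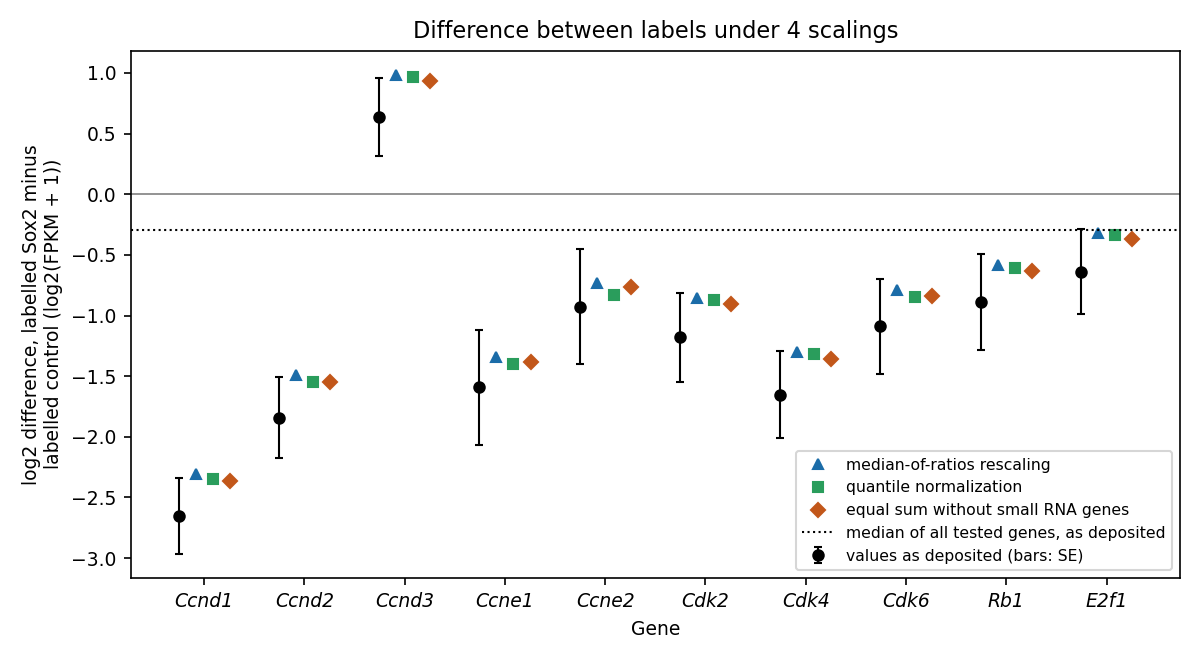
Log2 difference of each gene between the labels (labelled Sox2 minus labelled control, log2(FPKM + 1)) for the values as deposited (black, with SE bars) and under 3 rescalings (coloured points), with a dotted line at the median of all tested genes (-0.29). All points of Ccnd3 lie above 0 and all points of the other 9 genes below it.

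The partners of the relay were taken from 8 lists of named genes. Over all tested genes 8.11% were lower and 4.20% higher by limma's adjusted p. The counts of these lists and of the marker lists are to be read against those shares. Of 8 CDK inhibitor genes, which encode proteins that block these kinases or, for Cdkn3, a phosphatase acting on them, 2 were lower, 1 was higher and 5 did not pass, with a median log2 difference of -0.68. The same counts held under all 3 rescalings. Cdkn2a and Cdkn2b, neighbouring genes that both encode inhibitors of Cdk4 and Cdk6, moved apart. Cdkn2a stood at 0.523 and 1.49 FPKM in the Sox2-labelled libraries against 8.70 and 16.1 FPKM (log2 difference -2.73, limma's adjusted p = 0.00391). Its fold of 12.4 was 23.7 without Sox2-labelled replicate 2, and its call held with any 1 library left out. Cdkn2b stood at 84.9 and 131 FPKM against 45.1 and 44.2 FPKM (log2 1.22, limma's adjusted p = 0.0335), and missed the threshold without Sox2-labelled replicate 1 (limma's adjusted p = 0.0513) or 2 (0.317). Cdkn3 was lower by -2.10 (limma's adjusted p = 0.0179, and 0.259 without Sox2-labelled replicate 2), and its fold of 5.80 became 20.0 without Sox2-labelled replicate 1 and 3.39 without Sox2-labelled replicate 2. The CIP/KIP inhibitors Cdkn1a, Cdkn1b and Cdkn1c summed to 146 and 117 FPKM against 154 and 151 FPKM, and none of them passed (limma's adjusted p = 0.193, 0.229 and 0.766, with 0 of the 3 at an unadjusted p under 0.05).

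Of 11 RB, E2F and DP family genes, 2 were lower and 9 did not pass, with a median of -0.89. None was higher by limma's adjusted p and 1 at an unadjusted p under 0.05, and 1 was higher under each rescaling. E2f8, a repressor of the family, stood at 2.19 and 1.01 FPKM against 8.83 and 7.90 FPKM (log2 difference -1.88, limma's adjusted p = 0.0144). Tfdp1, the common binding partner of E2F factors, stood at 16.3 and 7.58 FPKM against 48.1 and 29.9 FPKM (log2 -1.68, limma's adjusted p = 0.0245). Neither passed without Sox2-labelled replicate 2 (limma's adjusted p = 0.223 and 0.265), and E2f8 missed narrowly without Sox2-labelled replicate 1 (0.0516). Their folds of 5.22 and 3.27 were 8.25 and 5.15 without Sox2-labelled replicate 1.

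Genes that activate or restrain the kinases, 9 in all, gave 2 lower, 7 that did not pass and none higher in limma, also none at an unadjusted p under 0.05, with a median of -0.84. The 2 were Pkmyt1, a kinase that inhibits Cdk1 (log2 difference -1.42, limma's adjusted p = 0.0314), and Cdc25b, a phosphatase that activates it (-1.14, 0.0487). Neither passed in any of the 4 fits with 1 library left out (limma's adjusted p = 0.0565 to 0.326), and Cdc25b did not under any rescaling (0.0710 to 0.0958). Of 12 cyclin degradation genes, 2 were lower and 10 did not pass, with none higher in limma or at an unadjusted p under 0.05, and the median of -0.33 lay next to that of all genes. The 2 were Cks1b (-2.02, limma's adjusted p = 0.0136), a cofactor of the ubiquitin ligase that clears Cdkn1b protein, and Skp1a (-1.30, 0.0301), a core part of that ligase. Cks1b missed the threshold without Sox2-labelled replicate 2 (limma's adjusted p = 0.161), and its fold of 4.14 was 6.87 without Sox2-labelled replicate 1. Skp1a missed it under all 3 rescalings (0.0551 to 0.0901) and without Sox2-labelled replicate 2 (0.261) or control-labelled replicate 2 (0.0535).

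Many genes downstream of the relay were lower in the Sox2-labelled libraries. Among 22 E2F targets of DNA synthesis 13 were lower and 9 did not pass, with none higher in limma, or at an unadjusted p under 0.05, with a median of -1.64. Examples are the thymidine kinase Tk1 at 8.88 and 4.29 FPKM against 35.7 and 40.8 FPKM (log2 difference -2.44, limma's adjusted p = 0.00326) and the replicative helicase subunit Mcm7 at 14.3 and 5.82 FPKM against 56.4 and 44.4 FPKM (log2 -2.32, 0.00585). Another is Uhrf1, which brings DNA methylation to new strands (-2.27, limma's adjusted p = 0.0126). Among 7 genes of the S and M phases 6 were lower and 1, Ccnf, did not pass, with none higher in limma, or at an unadjusted p under 0.05, with a median of -2.50. Cdk1, the mitotic kinase, stood at 6.95 and 2.03 FPKM against 42.7 and 21.4 FPKM (log2 -2.67, limma's adjusted p = 0.00762). The cyclins that bind it, Ccnb2 (-2.59, 0.00439) and Ccna2 (-2.52, 0.0110), were lower as well by limma's adjusted p.

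These counts leaned on 1 library. Without Sox2-labelled replicate 2, limma called 0 of the 22 DNA synthesis genes and 0 of the 7 S and M phase genes, with 115 genes lower in all, and leaving out control-labelled replicate 1 left 8 of the 22. Equal summed FPKM left 8 of the 22 and 4 of the 7, the robust variance model gave 17 and 4, and with no filter on low values none of the named partner genes passed. Without Sox2-labelled replicate 1 the folds of Tk1, Mcm7, Uhrf1, Cdk1, Ccnb2 and Ccna2 went from 5.81, 5.00, 4.88, 7.13, 6.57 and 6.35 to 8.92, 8.66, 10.6, 15.8, 11.6 and 13.9. Without Sox2-labelled replicate 2, those of Uhrf1, Cdk1 and Ccna2 were 3.17, 4.61 and 4.12, and that of Ccna2 was 3.99 without control-labelled replicate 1.

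Regulators through which growth signals reach the D cyclin genes did not move one way. Of 13, 12 were tested, 2 were lower, 1 was higher and 9 did not pass, with a median of 0.03. The number higher was 2 to 4 under the 3 rescalings. Myc, whose product binds E-boxes, stood at 9.46 and 6.37 FPKM against 19.4 and 31.1 FPKM (log2 difference -1.54, limma's adjusted p = 0.0241). It missed the threshold under all 3 rescalings (limma's adjusted p = 0.0549 to 0.0708) and without Sox2-labelled replicate 1 (0.0656), Sox2-labelled replicate 2 (0.248) or control-labelled replicate 2 (0.107). Foxm1, a factor of mitotic genes, stood at 5.14 and 1.90 FPKM against 23.8 and 14.3 FPKM (log2 -2.21, limma's adjusted p = 0.0112, and 0.160 without Sox2-labelled replicate 2), and its fold of 5.42 was 10.0 without Sox2-labelled replicate 1. The ETS factor Etv5, which is also on the list of AT2 cell markers, stood at 62.4 and 49.9 FPKM against 19.9 and 7.88 FPKM (log2 2.06, limma's adjusted p = 0.0105). It missed the threshold without Sox2-labelled replicate 1 (limma's adjusted p = 0.0782) or 2 (0.0825), and its fold of 4.04 was 7.13 without control-labelled replicate 1.

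Cyclins and kinases outside the G1 relay mostly did not pass. Of 23, 22 were tested, 2 were lower and none was higher in limma, or at an unadjusted p under 0.05, with a median of -0.23, and under median-of-ratios or quantile rescaling 1 was higher. The 2 were Ccng1, a target of p53 (10.4 and 6.10 FPKM against 41.6 and 22.7 FPKM, log2 difference -1.82, limma's adjusted p = 0.0154), and Cdk19, a kinase of the Mediator complex (-1.29, 0.0387). Without Sox2-labelled replicate 2 neither passed (limma's adjusted p = 0.184 and 0.326), and Cdk19 passed in none of the 4 fits with 1 library left out.

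**Figure D4:**
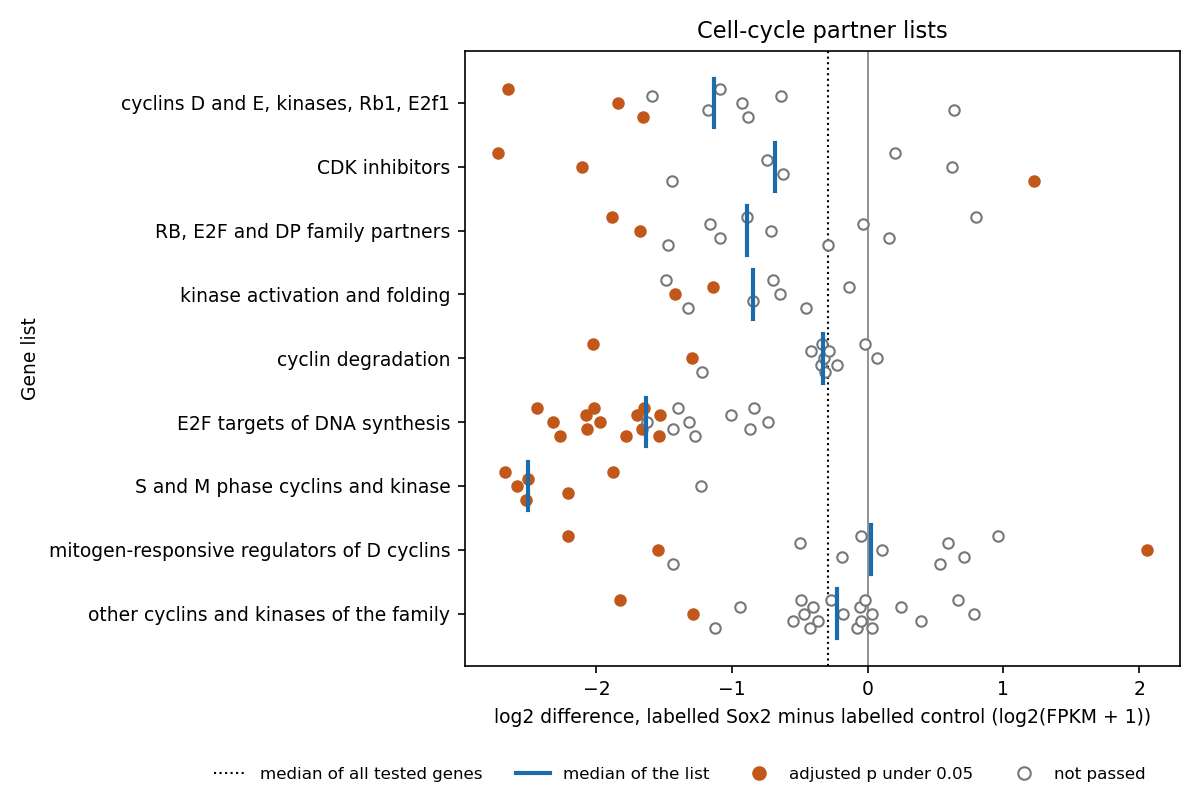
Log2 difference (labelled Sox2 minus labelled control, log2(FPKM + 1)) of every tested gene of the 10-gene set and of the 8 partner lists, filled where limma's adjusted p was under 0.05, with the median of each list (blue) and of all tested genes (dotted, -0.29). The S and M phase list lies farthest left (median -2.50), and the degradation list sits at the median of all genes (-0.33).

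The genes closest in pattern to Ccnd1 and Ccnd2 were taken by Euclidean distance of log2(FPKM + 1) over the 4 libraries, each gene centred on its own mean. For Ccnd1 they were the amino acid transporter Slc38a1 (distance 0.159), the surface protein Cd24a (0.175) and Prrg4 (0.181). Of these, Cd24a stood at 73.7 and 53.3 FPKM against 352 and 356 FPKM. For Ccnd2 they were the linker protein Dst (0.207), Lypd6b (0.242) and the phosphodiesterase Pde10a (0.257), and Dst stood at 3.37 and 5.26 FPKM against 15.4 and 19.2 FPKM. With 4 libraries in 2 groups, such a distance describes little beyond the difference between labels and the replicate gap.

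Marker genes moved between the labels along with the genes above. Of 9 AT1 markers 8 were higher in the Sox2-labelled libraries and none lower, with summed levels of 5866 and 6896 FPKM against 1245 and 779 FPKM. All 8 AT2 markers were higher, summing to 24838 and 17197 FPKM against 5884 and 937 FPKM. Among 6 leukocyte markers 4 were tested and 2 were higher, Lyz2 and Csf1r, while Cd3e stayed at or under 0.310 FPKM. The list summed to 1145 and 843 FPKM against 254 and 63.9 FPKM, most of it Lyz2 (1102 and 812 against 241 and 58.3 FPKM). Ptprc and Cd68 overlapped between the labels and did not pass (limma's adjusted p = 0.348 and 0.969). Of 5 endothelial markers 1 was higher (sums of 72.3 and 30.2 FPKM against 23.4 and 6.47 FPKM), and of 6 mesenchymal markers none passed (219 and 73.7 FPKM against 99.4 and 25.3 FPKM). Red blood cell markers summed to 202 and 927 FPKM against 56.2 and 256 FPKM, with 1 of 5 higher. For the airway, 1 of 4 club markers, Scgb3a2, and 1 of 4 tested ciliated markers, Tppp3, were higher. The club list summed to 3538 and 6024 FPKM against 1949 and 2158 FPKM, most of it Scgb1a1, which did not pass (limma's adjusted p = 0.0629). Cyp2f2 had the opposite sign (94.3 and 107 against 72.6 and 376 FPKM). The ciliated list summed to 331 and 334 FPKM against 135 and 70.4 FPKM, most of it Tppp3 (311 and 315 against 113 and 55.9 FPKM). Foxj1, Ccdc39 and Rsph1 did not pass (limma's adjusted p = 0.664, 0.685 and 0.721), and Rsph1 and Dnah5 had higher means in the control-labelled libraries. No listed marker was at 0 in all libraries, and the AT2 sum exceeded the AT1 sum in all 4. Of 5 basal cell markers 2 were tested and 1 was lower, with sums of 2.14 and 1.70 FPKM against 3.94 and 16.6 FPKM. That one was Trp63, the defining factor of basal cells, at 0.0605 and 0.0293 FPKM against 2.38 and 14.4 FPKM (limma's adjusted p = 0.0145), while the basal keratin Krt5 was listed at 0 in both Sox2-labelled libraries and did not exceed 0.686 FPKM in the others. Krt15, with 1.75 and 1.60 FPKM against 1.46 and 1.43 FPKM, did not pass (limma's adjusted p = 0.861), and Krt14 and Ngfr did not exceed 0.230 FPKM in any library. The part of cell makeup in the differences of the cyclins and kinases was not tested.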

How the data were processed

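Per the labels' protocols, poly-A RNA of sorted cells was sequenced on a HiSeq2000. The deposited values are gene FPKM, each with 2 confidence bounds, per the file headers. The submitters' processing notes list TopHat2, Bowtie2, Cufflinks and Cuffdiff with the build mm10. Their versions and roles, the annotation and strandedness are not stated in those sources. Entries of the same symbol were summed (267 genes), and 1 gene with a value marked as failed in 3 libraries was left out. A further table holds 2 value columns without group names and was not used.

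All genes averaging 1 FPKM or more were tested on log2(FPKM + 1), which understates the change of low genes, with limma 3.58.1 in R 4.3.3 (lmFit, eBayes with trend, two-sided), with 2 residual degrees of freedom. The fitting code was tested on simulated data. The genes named were all 10 members, up to 3 genes past the threshold with the largest differences per partner list, and the 3 nearest in pattern to each of 2 members. Marker genes, overlapping genes and the CIP/KIP genes are named beyond that rule. The 10 genes and the lists were chosen with earlier results of these data known. Alternatives were a pseudocount of 0.1, no filter, a filter at 5 FPKM, 3 rescalings, 2 variance models, a replicate block, and omission of each library in turn. Deposited starts were read as counted from 0 and printed 1-based, since 8543 then equalled GENCODE starts against 775 otherwise. A comparison of protein sequences planned at the outset was not made.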

Additional observations from a re-analysis of the deposited data

How the results depend on the processing

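The count of the 10 genes that were lower was 3 as deposited, and 0 were higher. Without the filter on low values limma called 0 of them lower (adjusted p = 0.0788 for Ccnd1), while 6 had an unadjusted p under 0.05. It then called 0 genes higher and 3 lower in all, with 1251 and 2618 at an unadjusted p under 0.05. The robust variance model gave 5 lower of the 10, with 1350 lower and 603 higher over all genes. With 1 library left out the count ranged from 2 (without Sox2-labelled replicate 2) to 5 (without control-labelled replicate 2), and 0 were higher in each. Under median-of-ratios, quantile and equal-sum rescaling 1 of the 10, Ccnd3, was higher and 2, 4 and 3 were lower. Over all genes 686, 827 and 671 were then lower and 964, 980 and 805 higher, or 58.4%, 54.2% and 54.5% of the calls in place of 34.1%. All genes gave 506 higher and 976 lower as deposited. Leaving out 1 library gave 119 to 837 higher and 115 to 1312 lower: 173 and 422 without Sox2-labelled replicate 1, 119 and 115 without Sox2-labelled replicate 2, 837 and 887 without control-labelled replicate 1, 399 and 1312 without control-labelled replicate 2. An arm left with 1 library was assumed to vary like the other. The replicate block gave 8 lower of the 10, all but Ccnd3 and E2f1, and 1142 higher and 2730 lower genes. The replicate numbers are no stated pairing, and same-numbered libraries deviated together with r = 0.234 across genes. No sign changed in any alternative for the 10 genes or the 27 others named by rule. Of those 27, 4 (Cdkn2a, Slc38a1, Cd24a and Sox2) passed whichever of the 4 libraries was omitted, and 21 passed under all 3 rescalings. Without the filter Sox2 alone of the 27 passed. For the 10 and the 27, the smaller pseudocount and the 5 FPKM filter changed no call of a gene tested there, and the robust model lost none. Without trend Cdkn2b, Cdc25b and Skp1a did not pass. Over whole lists the robust model gave 4 lower kinase activation genes in place of 2 and 2 higher regulators in place of 1. The smaller pseudocount gave 3 lower kinase activation genes in place of 2. In place of 13 lower DNA synthesis genes it gave 14, and the 5 FPKM filter 12. The cause of these shifts was not tested. At 5 FPKM the E cyclins are not tested, and their wide bounds limit what can be read from them.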

Other observations

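The libraries of a label did not differ in the same way for all 10 genes. On the log2(FPKM + 1) scale the median tested gene was higher in replicate 1 than in replicate 2 by 0.37 in the Sox2-labelled libraries and by 0.32 in the control-labelled ones. Ccnd2 ran the other way in both, at -0.45 and -0.58. Ccne1 exceeded the median gap in both, at 0.91 and 0.98, as did Ccne2 at 0.70 and 1.16, while Ccnd1 had 0.44 and -0.01. The summed D cyclins over the summed E cyclins accordingly gave 32.7 and 89.0 in the Sox2-labelled libraries and 22.6 and 64.3 in the control-labelled ones, a ratio that differed more between replicates than between labels. The summed INK4 inhibitors, which Cdkn2b dominates, were 96.9 and 139 FPKM in the Sox2-labelled libraries and 77.5 and 76.9 FPKM in the control-labelled ones.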
